A study of Zea mays with 30 samples.

Results

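The inbred maize lines 72-3 and F9721 differ in germination speed, 72-3 being the fast and F9721 the slow one, and the 200 genes described here were read in seeds of 72-3 while almost none of their reads came from F9721. They were chosen in 2 steps, first by a count of at most 3 in every one of the 18 libraries of F9721, and then as the 200 with the highest mean TPM (the deposited level of a gene, relative to its length and to the library's total) over the 12 libraries of 72-3. The tables list 39005 genes, and 12037 of them met the first condition, of which 6034 had at least 1 read in 72-3 and 587 had a mean of at least 1 TPM there. The levels in 72-3 and the lack of reads in F9721 thus chose the genes, and they are given as a description with no test. Only the time course within 72-3 was tested.

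RNA was extracted from whole germinating seeds of the 2 lines, 5 seeds for each time point, with 3 libraries per line and time. Seeds of 72-3 were taken at 0, 6, 12 and 24 hours after imbibition (HAI), and seeds of F9721 at the same times and also at 36 and at 48 HAI, where 0 HAI stands for dry seeds. Whole seeds mix embryo, endosperm and seed coat, so a change in a level can reflect more RNA per cell or a larger share of the tissue that holds it, and these cannot be told apart. Marker genes of the seed tissues were not checked, because the gene IDs carry no names in the tables used here, and for the same reason no function is given for any of the 200 genes. The methods set up 3 germination replicates, each from a different ear, and they do not say which library came from which ear. The p-values therefore measure the spread between these libraries, which may include that between ears.

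A dry seed holds stored mRNAs made while the seed matured, many of which are degraded once water is taken up, and new transcription starts during imbibition. A gene can therefore be followed as a stored transcript that is lost, as a transcript made anew, or as one whose level holds. Maize inbreds are also known to differ from each other in gene content and in sequence, and reads of both lines were counted here on the genome of another inbred, B73. A gene that F9721 does not carry, a gene whose F9721 reads did not align to B73 and a gene that F9721 seeds do not transcribe cannot be told apart in these counts.

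The libraries held between 8080968 and 14192708 counts on genes in 72-3 and between 9237657 and 13648909 in F9721. The 200 genes together received 16683 to 44229 counts in a 72-3 library and 32 to 91 counts in an F9721 library. At least 192 of them had a read in each library of 72-3, and between 20 and 54 had one in a library of F9721. Over all 18 F9721 libraries 59 of the genes had no read at all, the highest count was 1 for 71, 2 for 39 and 3 for 31, and the total per gene was at most 27 with a median of 2. The shallowest library was from 72-3.

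Their mean levels in 72-3 ran from 4.05 to 79.7 TPM with a median of 9.14, and 88 genes reached 10 TPM and 8 reached 50. Behind these levels stood a mean of 6.17 to 1705 counts per library, with a median of 79.6. For 157 genes every library of 72-3 had more than 3 counts, whereas 34 genes had a mean of under 20 counts, so their single values are imprecise. A count of 3 in F9721 corresponds to 0.0595 to 3.39 TPM depending on the gene (median 0.631), and the mean level in 72-3 was over 5 times this limit for 167 genes and under 2 times for 5. For those 5 genes the count limit in F9721 lies close to the level in 72-3.

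The gene lengths the authors used were not in the tables, but the ratio of counts to TPM gives each gene's length relative to others. Set to 1 at the median of the genes with at least 1 TPM, the relative length of the 200 genes had a median of 0.363, and 58% were under 0.5. The 14925 other genes with a mean TPM at or above that of the last of the 200, called comparison genes below, had a median of 0.999 and 24.8% under 0.5. A short gene reaches a given TPM with fewer counts, and the rule bounded counts in F9721 while ranking by TPM. When the ranking used CPM (counts relative to the library's total), which does not divide by length, 142 of the 200 were chosen again.

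Both conditions cut through a continuum. The last of the chosen genes, Zm00001d020459 and Zm00001d025785, had a mean of 4.05 TPM each, and the first left out, Zm00001d026282 and Zm00001d006940, had 4.04 and 3.99. On the count side, 23 further genes at or above the level of the last chosen gene had a highest F9721 count of 4, and 25 had a highest count of 5. The most abundant just outside were Zm00001d036452, with 1098 TPM in 72-3 and 14 counts over all F9721 libraries, and Zm00001d018965, with 163 TPM and 22 counts. These 2 genes were far more abundant in 72-3 than any of the 200. At a mean of at least 1 TPM, 587 genes of 72-3 had at most 3 counts in every F9721 library, against 676 genes of F9721 with at most 3 counts in every 72-3 library. Over the times that both lines share, 0 to 24 HAI, the order turned, with 791 such genes of 72-3 against 597 of F9721.

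At the level of the whole set, the summed TPM lay between 2231 and 2295 in dry seeds, between 2161 and 2287 after 6 h, between 2649 and 3067 after 12 h and between 3382 and 3640 after 24 h. The libraries of 12 and 24 HAI therefore lay above those of dry seeds without overlap. This rise has to be read against a shift of the TPM scale. The 20 most abundant genes of a library held 31.9% of all TPM in dry seeds, and after 6, 12 and 24 h they held 30.2%, 22.2% and 10.8%, as a mean of 3 libraries. The median comparison gene was 0.39 log2 units higher in TPM at 12 HAI and 0.66 higher at 24 HAI than in dry seeds. On CPM scaled by the trimmed mean of M values (TMM), which the tests below use, the same medians were 0.11 and 0.08. The 200 genes had medians of 0.51 and 0.76 in TPM and 0.22 and 0.18 in TMM-scaled CPM.

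By mean TPM, 46 genes were highest in dry seeds (23%), 11 at 6 HAI (5.5%), 45 at 12 HAI (22.5%) and 98 at 24 HAI (49%). Among the comparison genes the shares were 22.4%, 4.1%, 18.02% and 55.5%, in the same order of times. On TMM-scaled CPM the counts were 58, 28, 39 and 75 genes, which are shares of 29%, 14%, 19.5% and 37.5%, and the comparison genes had 28.9%, 14.7%, 16.0% and 40.5%. The time of the highest level was the same on both scales for 153 genes. Lack of reads in F9721 thus went with no single time course in 72-3, and the distribution over times was close to that of other genes. The mean TPM was higher at each successive time for 50 genes and lower at each for 33, as a description of the means. The highest group mean was 3.40 times the lowest for the median gene, under 2 times for 57 genes, and at least 10 times or over a lowest mean of 0 for 42.

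**Figure D1:**
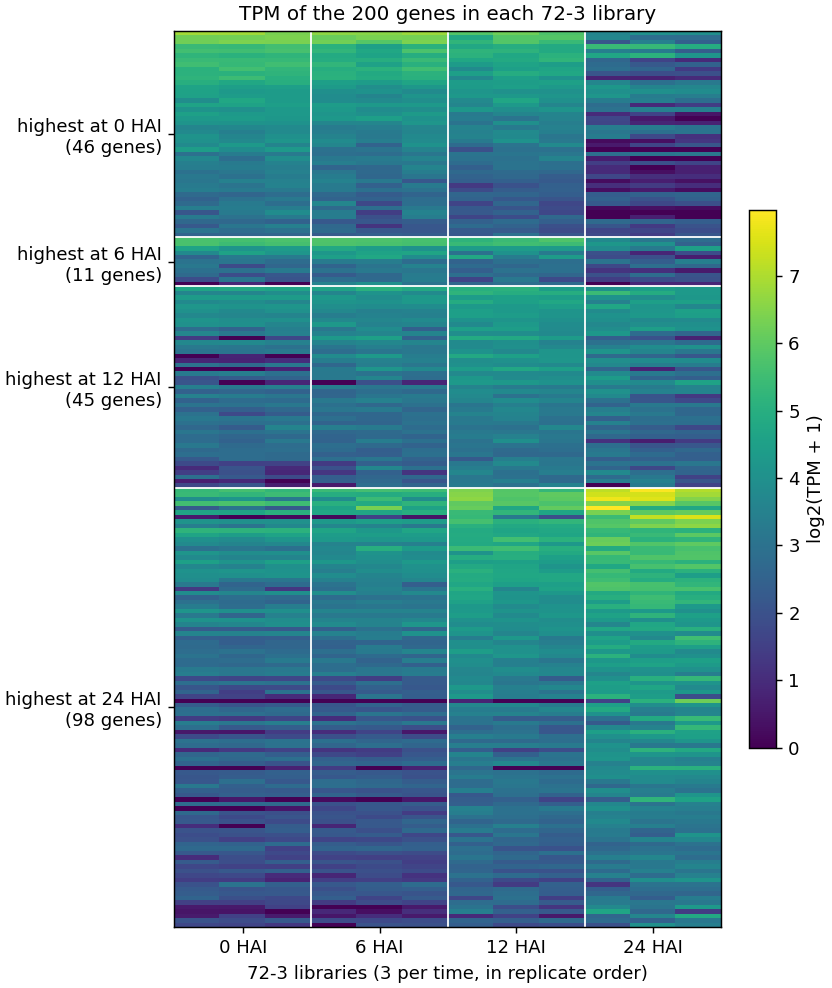
Levels of the 200 genes in the 12 libraries of 72-3, as log2(TPM + 1), 1 gene per line and 3 libraries per time (HAI, hours after imbibition). Genes are grouped by the time of their highest mean TPM: the 46 genes highest at 0 HAI mostly darken at 24 HAI, and the 98 highest at 24 HAI brighten there.

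Calls were made with edgeR's quasi-likelihood test on the 12 libraries of 72-3, over 32328 genes, where a call needed a Benjamini-Hochberg adjusted p no higher than 0.01 and a log2 fold change of 2 or more in either direction. At 6 HAI 7 of the 200 genes (3.5%) were higher than in dry seeds, where 1.48% of all genes tested and 2.54% of the comparison genes were. None was lower, where 0.00619% of all and 0.0067% of the comparison genes were, and 12 were lower at an unadjusted p under 0.05, with 0 called by DESeq2. At that unadjusted p, 748 of all 32328 genes and 378 of the 14925 comparison genes were lower. Higher at that p were 17 of the 200, 3346 of all genes and 2460 of the comparison genes. Without dry-seed replicate 1, dry-seed replicate 3 or 6 HAI replicate 2, 4 genes were called higher at 6 HAI in place of 7. At 12 HAI 15 genes (7.5%) were higher, against 6.1% of all and 9.13% of the comparison genes. None was lower with edgeR and 1 with DESeq2, against 0.186% of all and 0.101% of the comparison genes, and 41 were lower at an unadjusted p under 0.05. At that unadjusted p, 5212 of all 32328 genes and 3690 of the 14925 comparison genes were lower. Higher at that p were 73 of the 200, 7834 of all genes and 5335 of the comparison genes. At 24 HAI 28 genes (14%) were higher and 36 (18%) were lower. The background at 24 HAI was 14.9% higher and 7.63% lower for all genes, and 16.4% higher and 10.5% lower for the comparison genes.

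The shares called higher lay near those of the comparison genes at each time, while the share called lower at 24 HAI was above both backgrounds. The comparison genes are not matched in level or length. Their median TPM was 10.5 in dry seeds and 17.7 at 24 HAI, against 6.88 and 9.84 for the 200. The part of this difference in the shares called was not tested. The shares called higher depended on the ranking: 200 genes ranked by CPM in place of TPM included 1 called higher at 6 HAI and 8 at 12 HAI, in place of 7 and 15. The median log2 fold change of the 200 genes at 6, 12 and 24 HAI was 0.03, 0.24 and 0.14, and that of all genes was 0.01, 0.09 and 0.17. A difference between any of the 4 times passed the adjusted p for 129 genes (64.5%), against 47.7% of all genes and 70.3% of the comparison genes. Of the 200, 132 were called at no time against dry seeds, and for 69 of these no difference between any times passed either. All 3 contrasts share the dry-seed libraries, so a low or high dry-seed library moves them together.

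**Figure D2:**
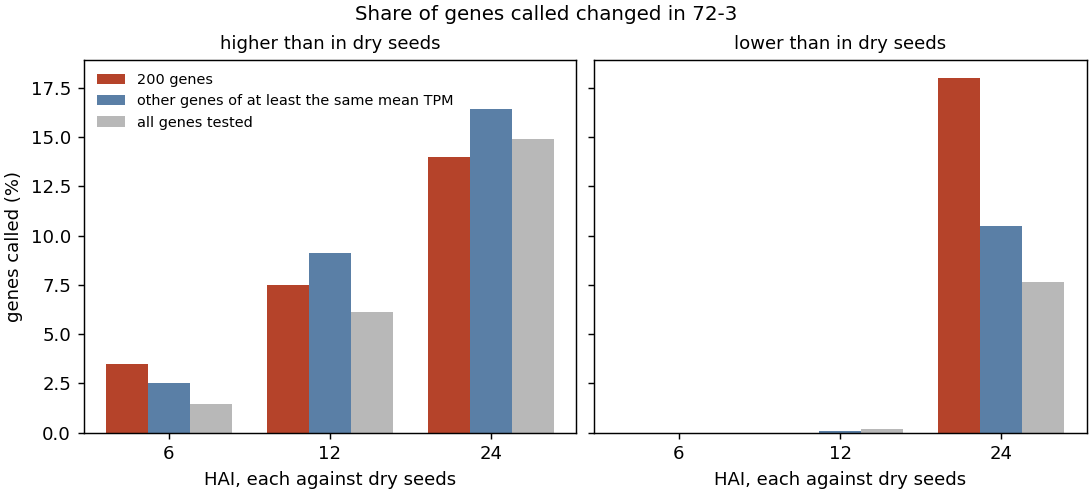
Percent of genes called higher or lower than in dry seeds of 72-3 at 6, 12 and 24 HAI, for the 200 genes, for other genes of at least the same mean TPM and for all genes tested. The bars of the 200 genes reach 14% higher and 18% lower at 24 HAI, and no bar for lower genes exceeds 1% before that time.

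Among the 10 most abundant genes, 4 were high in dry seeds and low at 24 HAI. Zm00001d004362 had 115, 113 and 82.2 TPM at 0 HAI, 96.02, 92.8 and 108 at 6 HAI, 55.9, 73.2 and 53.1 at 12 HAI and 11.3, 15.5 and 14.5 at 24 HAI. It was lower at 24 HAI than in dry seeds by a log2 fold change of -3.49 ± 0.22 (SE, adjusted p = 5.72e-10). The TPM of Zm00001d032138 was 73.9, 76.8 and 83.6 at 0 HAI, 70.4, 80.7 and 78.4 at 6 HAI, 26.96, 55.8 and 55.6 at 12 HAI and 11.6, 6.39 and 6.26 at 24 HAI. In Zm00001d004583, the libraries had 74.3, 83.5 and 80.9 TPM at 0 HAI, 76.1, 57.8 and 82.4 at 6 HAI, 35.8, 56.01 and 40.6 at 12 HAI and 3.35, 10.1 and 4.47 at 24 HAI. In both genes the 24 HAI libraries lay far below all earlier ones, with log2 fold changes of -3.80 ± 0.31 (SE, adjusted p = 1.05e-08) for Zm00001d032138 and -4.34 ± 0.32 (SE, adjusted p = 3.83e-09) for Zm00001d004583. Zm00001d028556 was read at 50.5, 48.4 and 51.1 TPM at 0 HAI, 54.1, 52.8 and 48.9 at 6 HAI, 35.7, 42.5 and 53.7 at 12 HAI and 12.8, 7.95 and 6.21 at 24 HAI. Its level held through 6 HAI and was lower at 24 HAI, with a log2 fold change of -3.001 ± 0.27 (SE, adjusted p = 4.50e-08). At 12 HAI these 4 genes had log2 fold changes of -1.05, -1.04, -1.14 and -0.46 in the order given, none of them past the threshold of 2. Zm00001d004362, Zm00001d004583 and Zm00001d028556 had no read in any F9721 library, and Zm00001d032138 had 2 in all.

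The other 6 of the 10 had their highest mean at 24 HAI. Zm00001d016085 had 39.8, 48.2 and 37.9 TPM at 0 HAI, 42.4, 47.1 and 44.1 at 6 HAI, 85.3, 55.7 and 38.8 at 12 HAI and 145, 240.0 and 132 at 24 HAI. This most abundant gene was higher in every 24 HAI library than in any other, with a log2 fold change of 1.46 ± 0.27 (SE, adjusted p = 1.27e-04), which is below the threshold of 2. The TPM of Zm00001d036227 was 41.04, 36.7 and 42.8 at 0 HAI, 29.9, 28.6 and 31.2 at 6 HAI, 91.4, 57.95 and 63.8 at 12 HAI and 167, 173 and 114 at 24 HAI. The same held for it, with a log2 fold change of 1.35 ± 0.21 (SE, adjusted p = 1.82e-05). In Zm00001d014768, the libraries had 45.7, 51.9 and 44.5 TPM at 0 HAI, 31.5, 28.4 and 35.7 at 6 HAI, 64.01, 59.1 and 51.3 at 12 HAI and 89.04, 91.04 and 59.1 at 24 HAI. On the TMM scale its difference at 24 HAI was small, 0.19 ± 0.21 (SE, adjusted p = 0.477), although its TPM at 24 HAI exceeded every dry-seed library. Zm00001d017413 was read at 24.6, 24.4 and 32.05 TPM at 0 HAI, 25.02, 25.3 and 30.6 at 6 HAI, 41.5, 36.9 and 24.9 at 12 HAI and 82.1, 60.8 and 66.3 at 24 HAI. Against dry seeds, the 24 HAI log2 fold change was 0.80 ± 0.22 (SE, adjusted p = 0.00492). These 4 genes were therefore not called at any time.

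Of the abundant genes, 2 were called higher. Zm00001d019274 had 14.2, 16.8 and 8.14 TPM at 0 HAI, 13.7, 41.97 and 13.96 at 6 HAI, 96.3, 53.8 and 60.7 at 12 HAI and 215, 189 and 89.2 at 24 HAI. Its log2 fold change was 2.14 ± 0.45 (SE, adjusted p = 0.00135) at 12 HAI and 3.11 ± 0.45 (SE, adjusted p = 1.22e-05) at 24 HAI. The call at 12 HAI was lost without dry-seed replicate 3 (log2 fold change 1.84) or without 12 HAI replicate 1 (1.87), and the call at 24 HAI held in every alternative. The TPM of Zm00001d002071 was 3.89, 7.34 and 3.75 at 0 HAI, 23.9, 79.6 and 22.9 at 6 HAI, 67.98, 25.7 and 65.97 at 12 HAI and 249.7, 28.98 and 26.3 at 24 HAI. Here a single library, 24 HAI replicate 1, stood far above the other 24 HAI libraries, which lay within the range of 6 and 12 HAI. The log2 fold change at 24 HAI was 3.84 ± 0.91 (SE, adjusted p = 0.00149), and without that library it was 1.80, below the threshold. Without dry-seed replicate 1 it was 3.68 with an adjusted p of 0.0102, which also misses the threshold. The call was lost as well in a fit of only the 2 groups compared (adjusted p = 0.01001), DESeq2 gave no adjusted p for it, and its test for a difference between any times did not pass (adjusted p = 0.0118). F9721 had 7 counts of Zm00001d019274 and 13 of Zm00001d002071 over its 18 libraries.

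**Figure D3:**
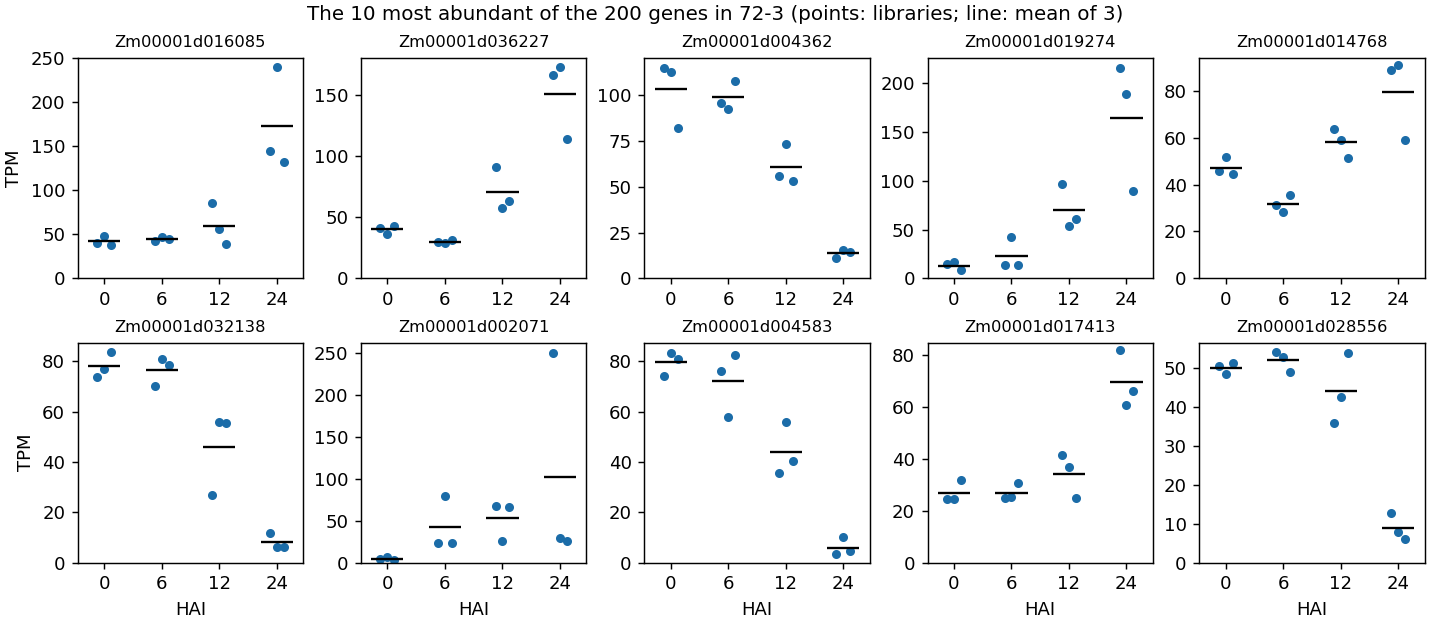
TPM of the 10 most abundant of the 200 genes in 72-3 by hours after imbibition (HAI), with a point per library and a line at the mean of 3. Panels Zm00001d004362, Zm00001d032138, Zm00001d004583 and Zm00001d028556 end at their lowest level, the others at their highest, and Zm00001d002071 does so through a single library at 250 TPM.

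The genes with the strongest tests at 6 and 12 HAI were not abundant in dry seeds. In Zm00001d051254, the libraries had 0.761, 0.719 and 1.04 TPM at 0 HAI, 9.34, 10.3 and 10.1 at 6 HAI, 14.4, 15.3 and 17.2 at 12 HAI and 14.2, 13.6 and 13.7 at 24 HAI. All imbibed libraries lay above all dry-seed libraries, with little spread within a time. Its log2 fold change was 3.65 ± 0.22 (SE, adjusted p = 7.86e-09) at 6 HAI, 3.94 ± 0.21 (SE, adjusted p = 1.69e-09) at 12 HAI and 3.46 ± 0.21 (SE, adjusted p = 4.40e-10) at 24 HAI. F9721 had 9 counts of Zm00001d051254 in all and at most 3 in a library. Zm00001d014527 was read at 0, 0 and 0.396 TPM at 0 HAI, 2.28, 3.59 and 3.03 at 6 HAI, 10.4, 6.92 and 8.55 at 12 HAI and 14.5, 10.5 and 9.68 at 24 HAI. Its dry-seed libraries held 2 counts, those of 6 HAI 54, those of 12 HAI 168 and those of 24 HAI 217, and it was called higher at each of the 3 times, with an adjusted p of 5.62e-04, 4.50e-06 and 3.31e-07. With 2 reads in dry seeds, the size of its change is poorly determined.

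At 24 HAI, Zm00001d008200 and Zm00001d008211 had the smallest p among the higher genes after Zm00001d051254. Zm00001d008200 had 9.55, 7.405 and 11.8 TPM at 0 HAI, 11.6, 10.7 and 8.04 at 6 HAI, 32.1, 26.8 and 28.1 at 12 HAI and 57.5, 85.5 and 96.4 at 24 HAI. The fitted log2 fold change at 24 HAI was 2.46 ± 0.24 (SE, adjusted p = 8.69e-08). The TPM of Zm00001d008211 was 3.93, 4.01 and 3.64 at 0 HAI, 4.48, 6.93 and 5.25 at 6 HAI, 19.2, 13.6 and 16.2 at 12 HAI and 25.1, 27.1 and 31.6 at 24 HAI. Its log2 fold change was 1.80 ± 0.23 (SE, adjusted p = 1.59e-05) at 12 HAI, just short of the threshold, and 2.26 ± 0.23 (SE, adjusted p = 1.68e-07) at 24 HAI. In both genes every 12 HAI library lay above every earlier one, and every 24 HAI library above every 12 HAI one. F9721 had 1 count of each over all its libraries.

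Among the genes that were lower at 24 HAI, 3 had the smallest p. In these genes every library of 24 HAI lay below every earlier one. In Zm00001d053266, the libraries had 33.8, 33.1 and 35.5 TPM at 0 HAI, 32.6, 27.5 and 33.5 at 6 HAI, 21.4, 29.6 and 25.7 at 12 HAI and 3.303, 2.75 and 2.82 at 24 HAI. At 24 HAI the gene had a log2 fold change of -4.08 ± 0.20 (SE, adjusted p = 3.51e-11). Zm00001d005889 was read at 9.65, 9.19 and 9.45 TPM at 0 HAI, 5.73, 6.32 and 8.33 at 6 HAI, 3.76, 3.31 and 2.54 at 12 HAI and 0.153, 0.2900 and 0.204 at 24 HAI. The counts behind these levels were 3, 4 and 3 at 24 HAI, against 124, 125 and 126 in dry seeds. Its log2 fold change was -1.83 ± 0.22 (SE, adjusted p = 8.61e-06) at 12 HAI, short of the threshold, and -6.004 ± 0.31 (SE, adjusted p = 4.69e-11) at 24 HAI. Zm00001d034283 had 35.1, 42.8 and 31.4 TPM at 0 HAI, 33.3, 29.2 and 32.3 at 6 HAI, 12.3, 21.4 and 15.5 at 12 HAI and 0.717, 0.681 and 0.957 at 24 HAI. With edgeR the 24 HAI log2 fold change came to -6.04 ± 0.34 (SE, adjusted p = 1.48e-10), from 8 counts at 24 HAI against 309 in dry seeds. For all 3 genes the mean at 12 HAI lay between those at 6 and 24 HAI. The 36 lower genes had a median log2 fold change of -3.77 at 24 HAI, and the 28 higher ones a median of 3.18.

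A time with no read in any of the 3 libraries was seen in 3 genes, named after their values were seen. The TPM of Zm00001d049803 was 20.7, 13.8 and 18.5 at 0 HAI, 6.78, 7.404 and 10.9 at 6 HAI, 2.88, 6.87 and 6.84 at 12 HAI and 0 TPM in all 3 libraries at 24 HAI. With 0 counts at 24 HAI against 108 in dry seeds, it was at least 64.9-fold lower, computed with 3 counts over the group. Zm00001d013142 had 0 counts at 24 HAI against 32 in dry seeds, and was at least 19.1-fold lower. Zm00001d002132 had no read in the libraries of 0 and 6 HAI, 0.706, 0 and 0 TPM at 12 HAI and 1.93, 33.1 and 72.98 TPM at 24 HAI. It was at least 63.1-fold higher at 24 HAI than in dry seeds, and its 3 libraries of 24 HAI, with 8, 96 and 226 counts, differed widely.

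Replicates of the 200 genes were less alike than those of the comparison genes. The median ratio of the SD to the mean TPM was 14.3% in dry seeds, and 17.7%, 19.4% and 28.1% after 6, 12 and 24 h. For the comparison genes it was 8.503%, 11.8%, 13.5% and 24.2%. In both sets the libraries of 24 HAI were the least alike. The shorter relative length of the 200 genes goes along with fewer counts at a given TPM, and its part in the spread was not tested.

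The number in a maize gene ID was used to ask whether the genes lie side by side, since the IDs of this gene set broadly follow the order of genes within a chromosome. No coordinates were at hand, so distances are given in ID numbers, and IDs that the tables do not list leave gaps. How far the numbers follow position was not tested. Of the 87 genes that the paper lists for a single mapped locus, 68 form a block of numbers, and the others have distant numbers. The 200 genes spread from number 1885 to number 53411, and 50 of the 54 blocks of 1000 numbers held at least 1 of them. No block held more than 9, and the largest gap without any ran from number 36828 to number 38619. In blocks with over 100 comparison genes, the 200 genes made up at most 4.44% of both sets together, with a median of 1.37%.

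At short range a minority had a neighbour in the set. Another of the 200 was within 1 number for 13 genes (6.5%), within 5 numbers for 22 (11%) and within 20 numbers for 41 (20.5%). No such counts were made for genes chosen without regard to F9721 reads, so these have no background. The 22 genes formed 10 runs, 2 of them with 3 genes and 8 with 2, and the other 178 stood alone. Among the 5 nearest expressed genes on each side (mean of at least 1 TPM in 72-3), 92 of 2000 neighbours (4.6%) also had at most 3 counts in every F9721 library. Around the other expressed genes the share was 2.77%. For the single nearest expressed gene on each side the shares were 9.5% (38 of 400) and 2.72%. The share was therefore higher next to the 200 genes, and it was still low: 131 of the 200 (65.5%) had no such gene among their 10 neighbours, against 76.7% of the other expressed genes. Neighbourhoods overlap and share genes, so these shares are a description without a test.

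**Figure D4:**
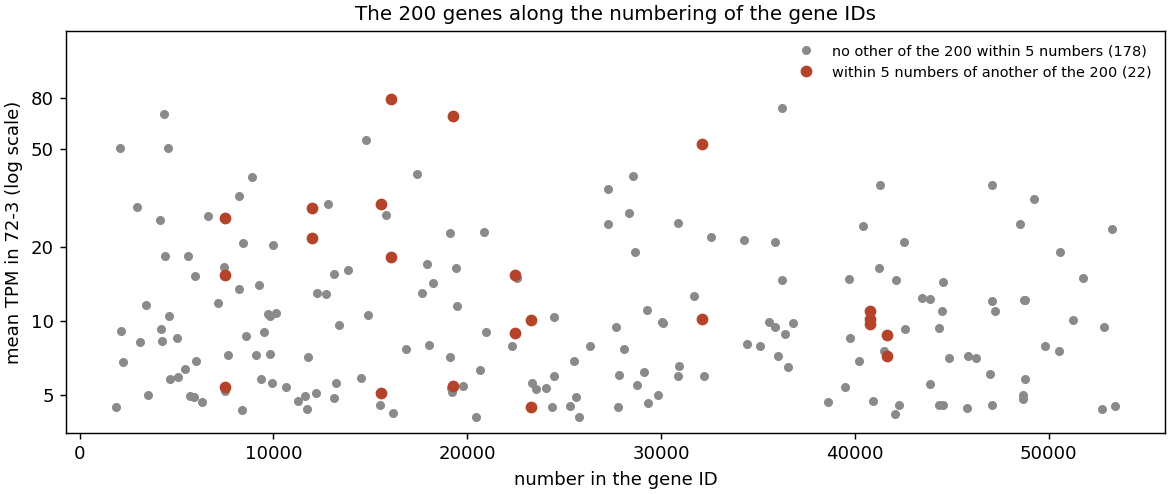
Mean TPM in 72-3 (log axis) of each of the 200 genes against the number in its gene ID. The 22 genes within 5 numbers of another of the 200 are drawn in red and the 178 others in grey, and the genes spread over the whole numbering.

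The genes beside the 200 were mostly read in both lines. For 164 of the 200 (82%), the nearest expressed gene on both sides had more than 3 counts in some F9721 library. This share was not computed for other expressed genes. Single nearest genes lacked F9721 reads more often beside the 200 than beside other expressed genes, at 9.5% against 2.72%. The nearest neighbours of the 200, without the 200 genes themselves, numbered 375. Of these, 14 (3.73%) lacked F9721 reads, against 373 of 20523 other expressed genes (1.82%). Among the 361 neighbours with reads in F9721, 258 (71.5%) were within 2-fold between 72-3 and F9721, as a ratio of mean TPM + 1 over the times 0 to 24 HAI. Of the rest, 79 (21.9%) were over 2-fold higher in 72-3 and 24 (6.65%) over 2-fold lower. For the other expressed genes with reads in F9721, 76.7% were within 2-fold, 18.9% over 2-fold higher in 72-3 and 4.32% over 2-fold lower.

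The longest unbroken run was Zm00001d040785, Zm00001d040786 and Zm00001d040787, 3 consecutive numbers with no read in any F9721 library. In Zm00001d040785, the libraries had 0, 0.757 and 0 TPM at 0 HAI, 13.3, 18.5 and 9.46 at 6 HAI, 27.03, 21.9 and 16.7 at 12 HAI and 5.77, 5.23 and 3.501 at 24 HAI. Zm00001d040786 was read at 0, 0 and 0.745 TPM at 0 HAI, 8.56, 17.3 and 12.9 at 6 HAI, 20.1, 26.6 and 20.96 at 12 HAI and 5.05, 0.719 and 3.37 at 24 HAI. Zm00001d040787 had 1.604, 0 and 2.32 TPM at 0 HAI, 18.4, 21.9 and 4.73 at 6 HAI, 28.1, 27.03 and 19.6 at 12 HAI and 4.195, 2.99 and 0.7001 at 24 HAI. All 3 genes were near 0 in dry seeds, were highest at 12 HAI and had means at 24 HAI below those at 6 HAI. At 12 HAI each was called higher than in dry seeds, with 110 counts against 1 for Zm00001d040785 (adjusted p = 1.22e-05), 114 against 1 for Zm00001d040786 (adjusted p = 2.62e-05) and 124 against 5 for Zm00001d040787 (adjusted p = 4.41e-04). At 6 HAI each was called too, with 66, 63 and 74 counts. The call of Zm00001d040787 at 6 HAI (log2 fold change 3.60 ± 0.74 SE, adjusted p = 0.00625) was lost in 6 of the 12 fits that left out a 72-3 library, namely each of the 3 dry-seed libraries, 12 HAI replicate 1 and 6 HAI replicates 1 and 2, with values of 2.99 to 4.22, and also with the filterByExpr filter on low counts (adjusted p = 0.0163). At 24 HAI only Zm00001d040785 was called, with 23 counts (adjusted p = 0.00333), and this call was lost without dry-seed replicate 1 (log2 fold change 2.87) or dry-seed replicate 3 (2.85), with DESeq2 (adjusted p = 0.0109) and in a fit of only the 2 groups compared (adjusted p = 0.0239).

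The relative lengths of these 3 genes were 0.0891, 0.0926 and 0.0891, all below the lower quartile of the set, 0.173. Near-identical copies would share reads, and how the counting divided them is not known, so the 3 time courses may not be separate measurements. The genes on either side were read in both lines. Zm00001d040784 had a mean of 12.5 TPM in 72-3 and 11.1 TPM in F9721, and Zm00001d040788 had 10.5 TPM in 72-3 and 16.8 TPM in F9721.

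The other run of 3 held Zm00001d007483, Zm00001d007487 and Zm00001d007488, and it was interrupted. The TPM of Zm00001d007483 was 7.77, 10.4 and 10.3 at 0 HAI, 10.5, 8.38 and 3.496 at 6 HAI, 4.32, 4.41 and 3.81 at 12 HAI and 0.212, 0.603 and 0.282 at 24 HAI. In Zm00001d007487, the libraries had 16.9, 13.9 and 14.5 TPM at 0 HAI, 11.3, 16.2 and 12.98 at 6 HAI, 16.1, 30.1 and 27.6 at 12 HAI and 59.1, 40.03 and 53.5 at 24 HAI. Zm00001d007488 was read at 9.16, 6.14 and 9.34 TPM at 0 HAI, 7.14, 7.71 and 7.299 at 6 HAI, 18.2, 13.3 and 15.8 at 12 HAI and 31.9, 38.8 and 18.99 at 24 HAI. The first was lower at 24 HAI than in dry seeds (log2 fold change -5.18 ± 0.54 SE, adjusted p = 2.38e-07), whereas the other two had log2 fold changes of 1.18 ± 0.27 (SE, adjusted p = 0.00105) and 1.31 ± 0.27 (SE, adjusted p = 3.69e-04), short of the threshold. Between them lay Zm00001d007485, with 3.13 TPM in 72-3 and at most 1 count in an F9721 library, which was below the level of the last chosen gene. Zm00001d007486, also between them, had 42.6 TPM in 72-3 and 44.6 TPM in F9721. Genes without and with F9721 reads thus alternated along this stretch.

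**Figure D5:**
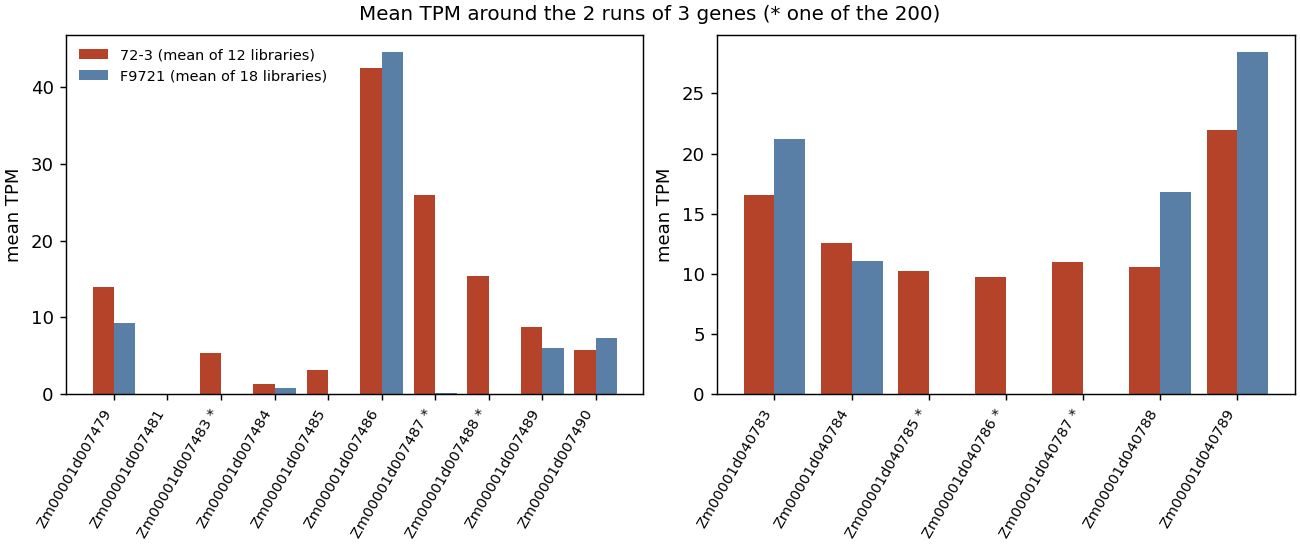
Mean TPM in 72-3 (12 libraries) and F9721 (18 libraries) of the genes in the 2 runs of 3 and of the listed genes between and beside them, in order of their ID numbers, with a star for each of the 200 genes. The starred bars have no visible F9721 partner or almost none, while Zm00001d007486 (42.6 TPM in 72-3 and 44.6 in F9721) and both flanks of the run on the right have one.

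Members of the remaining runs often differed in time course. In 5 of the 10 runs all members had their highest mean TPM at the same time. Zm00001d032139 had 11.3, 11.9 and 13.2 TPM at 0 HAI, 8.901, 9.69 and 11.7 at 6 HAI, 10.9, 8.79 and 10.4 at 12 HAI and 9.28, 8.97 and 7.11 at 24 HAI. Its neighbour Zm00001d032138 was also highest in dry seeds but lost most of its level by 24 HAI, whereas Zm00001d032139 had a log2 fold change of -1.09 ± 0.19 (SE, adjusted p = 9.79e-05), short of the threshold. The TPM of Zm00001d016080 was 23.8, 20.9 and 21.6 at 0 HAI, 19.2, 14.2 and 17.7 at 6 HAI, 19.7, 21.7 and 18.5 at 12 HAI and 17.5, 11.01 and 11.6 at 24 HAI. The difference from dry seeds at 24 HAI was a log2 fold change of -1.28 ± 0.20 (SE, adjusted p = 2.80e-05), while the most abundant gene of the set, Zm00001d016085, lies 5 numbers on and was highest at 24 HAI. In Zm00001d019271, the libraries had 1.76, 2.905 and 0.847 TPM at 0 HAI, 1.39, 4.61 and 1.295 at 6 HAI, 11.7, 6.700 and 9.54 at 12 HAI and 12.6, 6.55 and 4.99 at 24 HAI. Like Zm00001d019274, 3 numbers on, it was low in dry seeds, and in both genes 6 HAI replicate 2 was the highest of its time. Its log2 fold changes at 12 and 24 HAI, 2.04 ± 0.60 (SE, adjusted p = 0.0137) and 1.58 ± 0.60 (SE, adjusted p = 0.0335), did not pass.

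The 5 remaining pairs, named after their values were seen, gave the same mixed picture. Zm00001d011990 and Zm00001d011991 had their highest mean TPM at 24 HAI, at 31.5 ± 9.3 and 45.8 ± 19 TPM (SD, n = 3 each), against 15.2 ± 0.69 and 15.1 ± 1.8 in dry seeds. Zm00001d041649 and Zm00001d041650 likewise had theirs at 24 HAI, at 13.5 ± 1.1 and 12.0 ± 3.6 TPM, against 3.94 ± 0.50 and 6.36 ± 0.54 in dry seeds, and none of these 4 genes was called. Zm00001d015536 was lower at 24 HAI (log2 fold change -3.39 ± 0.42 SE, adjusted p = 1.59e-06), while Zm00001d015538 had a log2 fold change of -1.04 ± 0.24 (SE, adjusted p = 0.00118). Zm00001d022477 was lower at 24 HAI (log2 fold change -3.46 ± 0.61 SE, adjusted p = 8.65e-05), while Zm00001d022475 had a log2 fold change of -0.38 ± 0.16 (SE, adjusted p = 0.04903). Zm00001d023295 and Zm00001d023296, with 4.46 and 10.0 TPM on average, were not called at any time. There were 49 genes between the members of runs or among the 2 listed on each side. Of these, 28 had at least 1 TPM in 72-3, and 27 of these 28 had more than 3 counts in an F9721 library. For genes outside the set at or above the level of the last chosen gene (4.05 TPM), the selection rule fixed this outcome. Only those of the 28 below that level could differ, and the exception, Zm00001d007485 with 3.13 TPM in 72-3, was among them. The share of 27 in 28 was therefore set in part by the rule.

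None of the 200 genes was among the 87 candidate genes from association mapping of germination speed. With 200 genes out of 39005 listed, an overlap of 0 with so short a list says little about the candidates. Of the 87, 13 had at most 3 counts in every F9721 library, and 7 of these had a read in 72-3, with at most 0.0840 TPM on average. Over all 39005 listed genes, 12037 met this count limit, and 6034 of those had a read in 72-3. Of these candidates 68 form a block in the ID numbering that held 0 of the 200, and the nearest of the 200 on either side were at numbers 27250 and 27690.

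At the end of the ranking the values were thin. Zm00001d020459 was read at 2.21, 2.09 and 1.42 TPM at 0 HAI, 0, 3.098 and 2.898 at 6 HAI, 4.22, 2.37 and 2.67 at 12 HAI and 2.89, 15.1 and 9.66 at 24 HAI. These levels rest on 0 to 22 counts per library, and its log2 fold change at 24 HAI was 1.61 ± 0.76 (SE, adjusted p = 0.0829). Zm00001d025785 had 4.900, 5.01 and 5.12 TPM at 0 HAI, 3.88, 4.29 and 4.01 at 6 HAI, 3.51, 6.88 and 3.51 at 12 HAI and 2.402, 1.71 and 3.39 at 24 HAI. Its libraries held 9 to 42 counts, and its log2 fold change at 24 HAI was -1.58 ± 0.35 (SE, adjusted p = 8.24e-04), short of the threshold. F9721 had 4 counts of Zm00001d020459 and no count of Zm00001d025785.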

How the data were processed

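Whole germinating seeds of 72-3 (4 times) and F9721 (6 times) were sequenced with 3 libraries per group, and libraries were grouped by their labels. The authors deposited raw counts per gene (HTSeq, union mode) and TPM values (computed in R), both made from reads that had been trimmed by fastp and mapped to the B73 AGPv4 genome by HISAT2. Tool versions, strand setting and gene lengths are not given in the sources used here, so overlapping and antisense genes and genes with near-identical copies are uncertain. Reads outside genes made up 5.59% to 20.9% and ambiguous reads 1.60% to 2.11% of those tallied, and both stayed out of library sizes.

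Members were found from counts and TPM as described above. Time courses were tested with edgeR 4.0.16 in R 4.3.3 on the 12 libraries of 72-3 (4 group means, TMM, genes with at least 1 read, 32328 genes). F9721 libraries stayed out of this fit, because their lack of reads chose the genes. The edgeR and DESeq2 fits were tested on simulated counts, with the same spread for every gene. Changes were placed only in genes with a mean of at least 20 counts, so that test does not cover genes with fewer. The ID-number steps were checked on a made-up arrangement of IDs. Fold changes against a group with 0 counts are bounds computed with 3 counts over the group. Named genes were the 10 of highest mean TPM, up to 3 per direction and time with the smallest p among called genes whose libraries did not overlap between the groups, the members of the 5 largest ID runs, and the genes at the edges of the rule. The members and the lists were chosen with earlier results of these data known. Alternatives were DESeq2 1.42.0 and its size factors, other filters and thresholds, a replicate block, fits on other sets of libraries, each library left out, and other rules for members and neighbours. None of the 39005 IDs matched the RefSeq gene table at hand, so no sequences or names are given.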

Additional observations from a re-analysis of the deposited data

How the results depend on the processing

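Of the 26 called values of named genes, 22 held in every alternative, 4 were lost in some (Zm00001d019274 at 12 HAI, Zm00001d002071 and Zm00001d040785 at 24 HAI and Zm00001d040787 at 6 HAI), and none was reversed. Part of these genes were named for having the smallest p among the calls, which favours calls that hold. Calls of the other genes were not followed singly, so this share does not stand for them. The number of genes lower at 12 HAI was 1 with DESeq2, DESeq2's size factors, filterByExpr, only the 2 groups compared, all 30 libraries or a ranking by CPM, and 12 with the log2 fold threshold lowered to 1. That threshold gave 33 higher genes at 12 HAI, and 57 higher and 53 lower at 24 HAI. An adjusted p of at most 0.001 gave 4 higher at 6 HAI and 9 at 12 HAI. The shares of all genes called at these other thresholds were not computed, so these counts have no background. Choosing 200 genes with 0 counts in every F9721 library, 59 of them shared with the genes above, gave 3 higher at 6 HAI, 9 higher and 3 lower at 12 HAI. Ranking by CPM gave 1 higher at 6 HAI and 8 at 12 HAI. The 100 highest genes gave 4, 9 and 15 higher at 6, 12 and 24 HAI, 20 lower at 24 HAI, 68 that differed between any times, and 11 with another within 5 numbers, and fewer genes were counted there. Within 1 number there were 13.

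The share of neighbours without F9721 reads was 9.5% for the nearest gene on each side, 3.11% for neighbours of at least 5 TPM, 1.67% for genes with 0 counts in F9721 and 5.9% for the 100 highest, against 2.72%, 1.17%, 0.733% and 2.77% around other genes. With 1 library left out, 4 to 8 genes were higher at 6 HAI, 10 to 19 at 12 HAI and 24 to 28 at 24 HAI. Those lower numbered 0 to 0 at 6 HAI, 0 to 2 at 12 HAI and 34 to 38 at 24 HAI, and 115 to 144 differed between any times. Genes within 5 numbers of another numbered 22 to 24, and the neighbour share was 4.4% to 4.85%. Each such choice shared at least 194 of the 200 genes. Replicate numbers did not pair the libraries: deviations of same-numbered libraries correlated between -0.22 and 0.24, over 0.1 in 3 of 18 pairs. With the replicate number as a block 7 genes were higher at 6 HAI, 15 at 12 HAI and 27 at 24 HAI, 37 were lower at 24 HAI and 122 differed between any times. The cause of these shifts was not tested. Depth limits the genes with a mean under 20 counts and the 5 whose level lies near the limit in F9721.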
